A study of Arabidopsis thaliana with 12 samples.

Results

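ER bodies are large sacs of the endoplasmic reticulum (ER) that store β-glucosidases in Arabidopsis and its relatives. The 9 genes described here were BGLU18 (AT1G52400), BGLU19 (AT3G21370), BGLU21 (AT1G66270), BGLU22 (AT1G66280), BGLU23 (AT3G09260, also called PYK10), TSA1 (AT1G52410), NAI1 (AT2G22770), NAI2 (AT3G15950) and PBP1 (AT3G16420). They were picked by their identifiers from 33602 genes listed in the deposited gene table, and all 9 were among the 21256 genes tested after a filter on low counts. The members were chosen with measured values of these same libraries known, so that their levels and fold changes are given as descriptions and no test supports them.

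Seedlings carry ER bodies in the epidermis of cotyledons and hypocotyl and in roots, whereas mature rosette leaves form them after wounding or jasmonate treatment. β-Glucosidases cut glucose from small molecules. The enzymes and their substrates are thought to lie in separate compartments until a cell is broken, at which point PYK10 can act on indole glucosinolates and on the coumarin glucoside scopolin. BGLU18, also called AtBG1, is known in addition for releasing abscisic acid (ABA), the hormone of drought and seed dormancy, from its stored glucose ester. NAI1 is a bHLH transcription factor needed for the ER bodies of seedlings, NAI2 is a protein of the ER body needed for its formation, TSA1 is a relative of NAI2, and PBP1 is a jacalin-type lectin that binds PYK10.

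The plants were germinated seeds of the Arabidopsis thaliana wild type accession Col-0 (WT) and of the mutant sr34a-1, whose name refers to SR34A, a serine/arginine-rich splicing factor. The study asked how SR34A bears on gene expression and splicing in establishing seedlings and under ABA. Seeds of all groups were stratified, kept for 44 h at 21 °C on MS medium under constant white light, then moved for 2 h to MS medium alone (mock) or to MS medium with 0.5 µM ABA. Each of the 4 groups (both genotypes in mock and both with ABA) had 3 libraries that the labels call biological replicates, made from polyadenylated RNA of whole seedlings. The kind of mutation is not given in the labels, and 1 mutant line stands for the genotype.

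Libraries held 61128187 to 83268758 counts over genes. SR34A itself was at 78.4 ± 2.83 cRPKM (SD, n = 3) in WT mock and at 10.8 ± 0.556 cRPKM in sr34a-1 mock, and at 73.4 ± 2.41 and 10.1 ± 1.02 cRPKM in the ABA groups of WT and mutant. The genotype labels and the level of the targeted gene therefore went together in every library. cRPKM is the deposited level, reads scaled to the mappable length of the gene and to library depth.

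The 5 enzymes belong to 1 family of close relatives. Over aligned bases, the coding sequence of BGLU21 was 93.3% identical to that of BGLU22, its neighbour on chromosome 1 with 3345 bases between them. BGLU23 was 84.0% identical to BGLU21 and 83.7% to BGLU22. BGLU18 and BGLU19 were 74.1% identical to each other and 70.0% to 70.7% identical to the other 3 enzymes. NAI2 and TSA1 were 74.3% identical. BGLU18 and TSA1 are also neighbours, on the plus strand of chromosome 1 with 2191 bases between them. PBP1 lies 535 bases before the related lectin gene JAL31.

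The upstream sequences of 4 members are shown because these genes had the most different levels and responses. BGLU23 was the most abundant member and differed little between groups, BGLU19 was the member that was higher with ABA and in sr34a-1, BGLU18, its closest relative among the enzymes, was lower in sr34a-1, and NAI2 was lower with ABA. Each run is the 250 bases before the annotated gene start in the RefSeq annotation of TAIR10.1, 5′ to 3′ on the gene's strand, at chr3:2843782-2844031 (minus) for BGLU23, chr3:7527678-7527927 (minus) for BGLU19, chr1:19514739-19514988 (plus) for BGLU18 and chr3:5402654-5402903 (minus) for NAI2. Capitals mark matches, on either strand, to ACGTG, the core of ABA-responsive elements bound by bZIP factors, and to CATGCA, the core of the RY element bound by B3 factors of seed maturation.
BGLU23: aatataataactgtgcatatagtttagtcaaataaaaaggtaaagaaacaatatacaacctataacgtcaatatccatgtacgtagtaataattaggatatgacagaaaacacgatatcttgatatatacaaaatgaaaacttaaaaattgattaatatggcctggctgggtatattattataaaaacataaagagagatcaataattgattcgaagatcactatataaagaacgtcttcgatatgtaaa
BGLU19: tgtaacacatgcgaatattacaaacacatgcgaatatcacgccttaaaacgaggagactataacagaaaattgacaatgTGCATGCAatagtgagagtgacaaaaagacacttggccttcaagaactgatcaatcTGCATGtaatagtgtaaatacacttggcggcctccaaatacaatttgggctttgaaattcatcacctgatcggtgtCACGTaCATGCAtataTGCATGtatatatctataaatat
BGLU18: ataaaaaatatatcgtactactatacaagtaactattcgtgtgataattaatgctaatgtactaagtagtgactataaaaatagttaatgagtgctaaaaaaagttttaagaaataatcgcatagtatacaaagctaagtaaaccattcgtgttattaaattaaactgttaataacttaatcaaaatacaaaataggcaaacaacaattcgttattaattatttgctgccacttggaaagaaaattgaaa
NAI2: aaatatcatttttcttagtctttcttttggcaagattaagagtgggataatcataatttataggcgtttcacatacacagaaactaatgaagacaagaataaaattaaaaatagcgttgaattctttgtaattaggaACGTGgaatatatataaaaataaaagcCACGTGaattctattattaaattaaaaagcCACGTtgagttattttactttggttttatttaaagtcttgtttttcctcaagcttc

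BGLU19 had 5 matches to CATGCA, of which the first pair overlap, starting 171, 169, 115, 33 and 23 bases before the gene start, and 1 match to ACGTG at 39 bases. Across the 27443 protein-coding genes with such a window, 8.43% held at least 1 CATGCA and 8 genes (0.0292%) held 5 or more. The cutoff of 5 is the number of BGLU19 itself, so that this share is a description and not a test. NAI2 had 4 matches to ACGTG, and the pair that starts 86 and 85 bases before the gene start lies in 1 G-box, CACGTG. At least 1 ACGTG stood in 22.9% of the windows and at least 1 CACGTG in 6.49%. The other 7 members had 0 matches to these 3 motifs in the window. The E-box CANNTG, a motif of bHLH factors, stood in 55.3% of all windows and, among the members, in those of BGLU18, BGLU19, NAI1 and NAI2. A match of letters describes the window and does not show that a factor binds there.

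**Figure D1:**
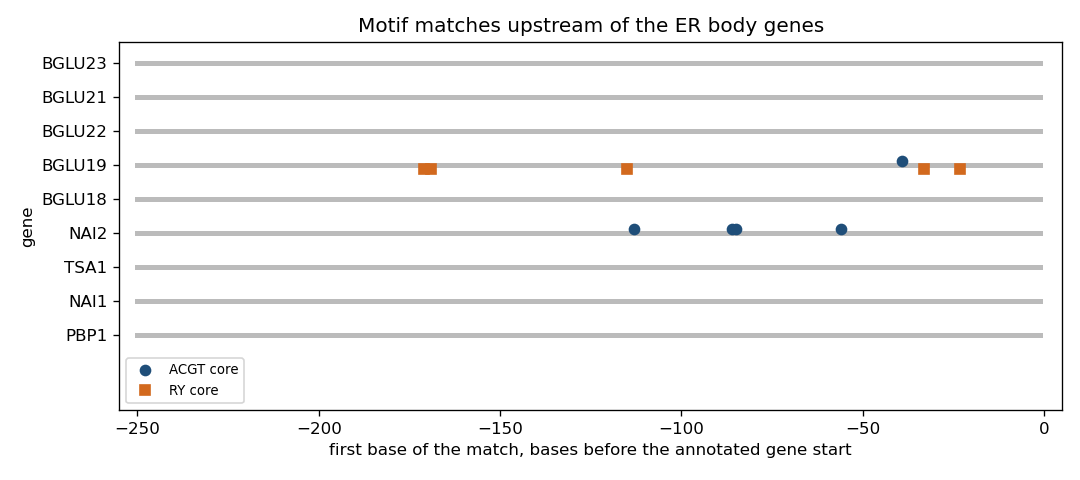
Motif matches in the 250 bases before the annotated start of each member (horizontal axis: bases before the gene start; grey line: the window). Circles are matches to the ACGT core and squares matches to the RY core; 5 squares and 1 circle stand in the window of BGLU19 and 4 circles in that of NAI2, and 7 windows are empty.

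The members' levels spanned more than 4 orders on a log10 scale, and the order was the same in the means of all 4 groups for the 7 most abundant genes. Averaged over 12 libraries, BGLU23 was at 6030 cRPKM, rank 2 of 32389 genes with values, and PBP1 at 2320 cRPKM, rank 5. NAI2 stood at 552 cRPKM (rank 161), BGLU21 at 404 (rank 279), BGLU22 at 185 (rank 714) and NAI1 at 70.3 (rank 2049). BGLU19 was at 12.9 cRPKM (rank 9378). BGLU18 at 0.284 cRPKM and TSA1 at 0.264 cRPKM ranked 20304 and 20392, and their ranges overlapped each other in every group. Together the 9 genes took 1.32% to 1.54% of all counts in a library, and BGLU23 alone took 0.892% to 1.06%. In whole seedlings, fewer cells of a type and less RNA per cell cannot be told apart.

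**Figure D2:**
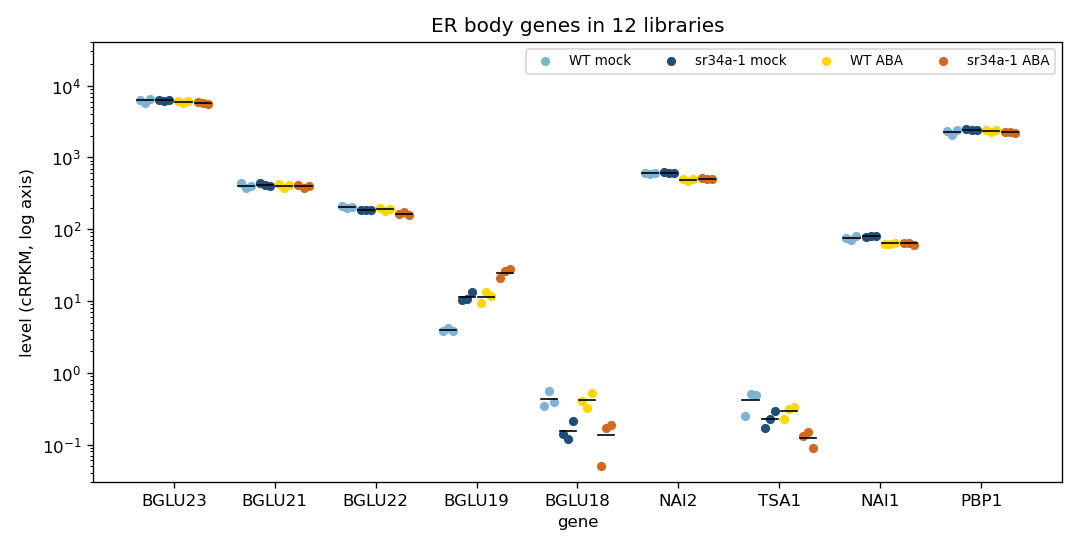
Level of each of the 9 genes (vertical axis: cRPKM, log axis) in the 12 libraries. Points are libraries, coloured by group, and bars are group means of 3; BGLU23 and PBP1 are at 2044.17 cRPKM or more in every library, whereas BGLU18 and TSA1 lie at or below 0.55 cRPKM.

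The main seedling enzymes changed little in any comparison. BGLU23, the PYK10 enzyme, was at 6372.64, 5781.92 and 6494.56 cRPKM in WT mock and at 6402.42, 6128.33 and 6230.25 cRPKM in sr34a-1 mock. With ABA it was at 6022.85, 5767.92 and 6124.38 cRPKM in WT and at 5847.13, 5702.55 and 5488.79 cRPKM in sr34a-1. Its groups overlapped except that the 3 sr34a-1 ABA libraries lay below the 3 sr34a-1 mock libraries. Its fitted log2 fold changes ran from -0.10 to 0.01 over the 4 pairwise comparisons, each with an SE of 0.0529, and the lowest bound of a 95% interval was -0.21.

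BGLU21, known like PYK10 for acting on scopolin, was at 400 ± 31.1 cRPKM in WT mock, 416 ± 15.2 in sr34a-1 mock, 405 ± 28.4 in WT ABA and 395 ± 15.3 in sr34a-1 ABA (SD, n = 3). Its groups overlapped in all 4 comparisons. BGLU22, its neighbour, was at 207.67, 194.89 and 202.40 cRPKM in WT mock and at 187.76, 186.02 and 186.29 in sr34a-1 mock. With ABA the WT libraries were at 197.06, 178.90 and 190.54 and the sr34a-1 libraries, the lowest group, at 164.29, 171.69 and 156.26. The sr34a-1 libraries lay below the WT libraries of the same treatment, by -0.11 (SE 0.0469) on the log2 scale in mock and by -0.21 (SE 0.047) with ABA. Within sr34a-1, ABA libraries lay below mock libraries by -0.15 (SE 0.047). The ratio of BGLU21 to BGLU22 was 1.98 ± 0.094 in WT mock and 2.41 ± 0.183 in sr34a-1 ABA. Of the 50-base stretches of the BGLU21 mRNA, 5.16% also occur in BGLU22, so that a small share of their reads could be split between them.

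BGLU19 was the member with the largest changes upward. Its level was 3.81, 4.16 and 3.80 cRPKM in WT mock and 10.37, 10.55 and 13.34 cRPKM in sr34a-1 mock. With ABA it was 9.41, 13.17 and 11.85 cRPKM in WT and 20.82, 25.98 and 27.51 cRPKM in sr34a-1. The WT mock libraries were lowest, the sr34a-1 mock and WT ABA libraries overlapped each other, and the sr34a-1 ABA libraries were highest. In sr34a-1 it was higher than in WT by 1.54 (SE 0.132) on the log2 scale in mock, a fold of 2.9, and by 1.10 (SE 0.122) with ABA, a fold of 2.14. ABA against mock gave 1.60 (SE 0.133) in WT, a fold of 3.03, and 1.16 (SE 0.122) in sr34a-1, a fold of 2.23. The genotype comparison in mock and the ABA comparison in WT share the WT mock libraries.

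The 3′ end of BGLU19 overlaps AT3G21360, a gene on the other strand, by 527 bases, and 21.3% of the 50-base stretches of its mRNA occur there. AT3G21360 was at 3.12 to 4.52 cRPKM over the 12 libraries, so that without strand-specific counting, which the sources used here do not state, its reads could make up part of the BGLU19 counts. Reads at the 11 BGLU19 introns in the splicing table, which the other gene does not share, numbered 358 to 485 in WT mock and 1130 to 1488 in sr34a-1 mock, and with ABA 971 to 1487 in WT and 2171 to 3153 in the mutant. These reads, not scaled to depth, were lowest in WT mock and highest in the mutant with ABA, like the gene's level.

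Markers of the embryo's reserves moved in the same direction. The marker lists here and below were also chosen with earlier results of these data known, so that counts over them are descriptions. The embryo reserve list, with cruciferins, oleosins and the glyoxylate enzymes ICL and MLS, was higher in sr34a-1 for 7 of 7 genes in mock and 6 of 7 with ABA, and higher with ABA for 6 of 7 in each genotype, by the quasi-likelihood test of edgeR (Benjamini-Hochberg adjusted over all genes). Over all genes, 8.42% were called higher in sr34a-1 in mock and 11.1% with ABA. With ABA against mock, 18.2% of all genes were called higher in WT and 19.4% in sr34a-1. The summed level of the embryo reserve list was 5390 to 6340 cRPKM in WT mock, 7340 to 8290 in sr34a-1 mock, 6180 to 6840 in WT ABA and 8130 to 8890 in sr34a-1 ABA, and 0 of its genes were at 0. OLEO1, an oil body protein, stood at 11 ± 2.2, 22.4 ± 2.5, 59.9 ± 8.23 and 139 ± 29.3 cRPKM (SD, n = 3) in the same order of groups. Most of the summed level came from ICL and MLS, at 4370 ± 395 and 1360 ± 112 cRPKM in WT mock. The next highest gene of the list there, CRA1, was at 45.5 ± 10.4 cRPKM. ICL was the gene of the list not called with ABA in WT (edgeR adjusted p = 0.105). The part of the reserve genes' tissue or stage in the BGLU19 levels was not tested. Across the 12 libraries, the 3 genes outside the members whose log2 CPM (counts scaled to library size) followed BGLU19 best, a description added after its values were seen, were TIP3-1 (Pearson r 0.984), a water channel of seed vacuoles, AT5G18200 (0.982) and AT1G62510 (0.979), among 17169 genes, and the points share 4 groups.

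BGLU18, the enzyme of wounded leaves and of the ABA glucose ester, rested on few reads, 6 to 85 counts per library, and was lower in sr34a-1. Its level was 0.34, 0.55 and 0.39 cRPKM in WT mock and 0.14, 0.12 and 0.21 cRPKM in sr34a-1 mock. With ABA it was 0.40, 0.32 and 0.53 cRPKM in WT and 0.05, 0.17 and 0.19 cRPKM in sr34a-1. The genotypes did not overlap under either treatment, and the treatments overlapped within each genotype. The log2 difference of sr34a-1 from WT was -1.44 (SE 0.386) in mock and -1.58 (SE 0.396) with ABA, while ABA against mock gave -0.004 (95% interval -0.76 to 0.75) in WT and -0.15 (-1.07 to 0.78) in sr34a-1. Cotyledon photosynthesis markers were also lower in sr34a-1, 7 of 7 under each treatment by the same test, with sums of 14100 to 16300 cRPKM in WT mock against 8470 to 10500 in sr34a-1 mock and 13700 to 16500 in WT ABA against 8720 to 9450 in sr34a-1 ABA. Over all genes, 7.99% were called lower in sr34a-1 in mock and 11% with ABA. Shoot epidermis markers, 4 genes with sums of 778 to 808, 733 to 742, 869 to 901 and 770 to 836 cRPKM in WT mock, sr34a-1 mock, WT with ABA and the mutant with ABA, were lower in sr34a-1 for 2 of 4 in mock and 1 of 4 with ABA. With ABA the count was 3 of 4 in the fit blocked by replicate number, in DESeq2 and with a filter of 1 CPM in 3 libraries, and in mock it was 0 without WT mock replicate 2 or 3 or sr34a-1 mock replicate 2 or 3. None of these markers was at 0, and their part in the BGLU18 levels was not tested. The genes whose log2 CPM followed BGLU18 best over the 12 libraries were AL4 (r 0.943), AT3G43690 (0.938) and CPN60B4 (0.93).

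TSA1, the NAI2 relative beside BGLU18, was about as low and had 16 to 106 counts per library. Its level was 0.25, 0.50 and 0.49 cRPKM in WT mock and 0.17, 0.23 and 0.29 cRPKM in sr34a-1 mock. With ABA it was 0.23, 0.31 and 0.33 cRPKM in WT and 0.13, 0.15 and 0.09 cRPKM in sr34a-1. The genotypes overlapped in mock, where 1 WT library was as low as the mutant, and did not overlap with ABA. In sr34a-1 the ABA libraries all lay below the mock libraries. The log2 difference of sr34a-1 from WT was -0.86 (SE 0.304) in mock and -1.22 (SE 0.338) with ABA. ABA against mock gave -0.49 (SE 0.301) in WT and -0.85 (SE 0.341) in sr34a-1. The log2 CPM of BGLU18 and TSA1 had a Pearson r of 0.699 over the 12 libraries.

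**Figure D3:**
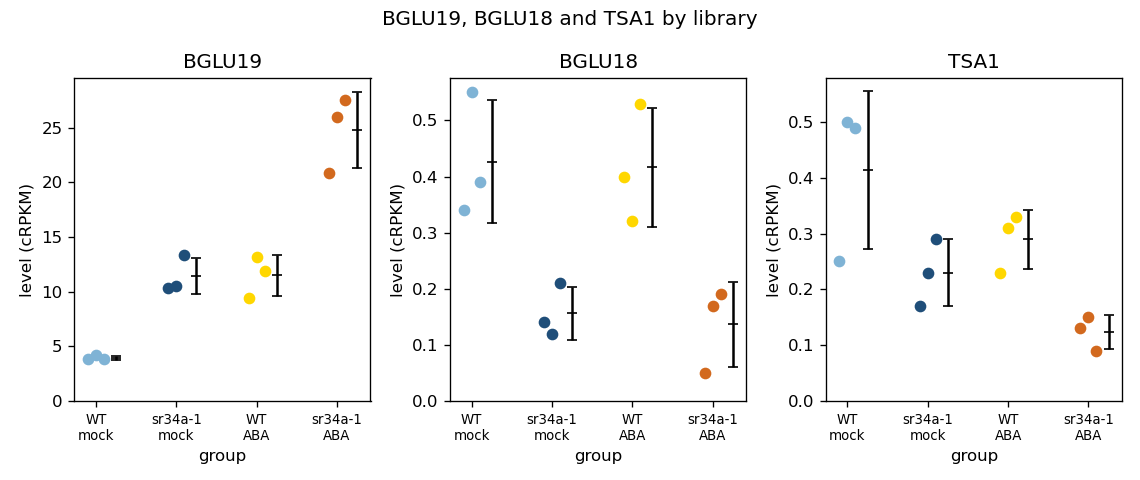
Level of BGLU19, BGLU18 and TSA1 (vertical axes: cRPKM) in each library of the 4 groups; black bars are the mean and SD of 3 libraries. BGLU19 runs from 3.80 to 27.51 cRPKM, and the sr34a-1 libraries are higher for BGLU19 and lower for BGLU18 under both treatments.

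NAI2 and NAI1 were lower with ABA in both genotypes. NAI2 was at 608.73, 587.62 and 596.93 cRPKM in WT mock and at 498.24, 469.46 and 505.61 in WT ABA. In sr34a-1 it was at 622.89, 601.58 and 615.82 cRPKM in mock and at 517.74, 504.66 and 498.55 with ABA. Mock and ABA libraries did not overlap, and genotypes overlapped within each treatment. The log2 fold change with ABA was -0.23 (SE 0.0416) in each genotype, a change of -14.9% in WT and -15% in sr34a-1.

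NAI1, the transcription factor, was at 74.88, 70.80 and 80.03 cRPKM in WT mock and at 61.76, 63.07 and 64.98 in WT ABA. In sr34a-1 it was at 77.09, 79.48 and 81.34 cRPKM in mock and at 64.74, 64.29 and 61.13 with ABA. Every ABA library lay below every mock library of either genotype. The log2 fold change with ABA was -0.20 (SE 0.0473) in WT and -0.28 (SE 0.0472) in sr34a-1. The log2 CPM of NAI1 and NAI2 had a Pearson r of 0.917 over the 12 libraries, which share the split by treatment, and the ratio of NAI2 to NAI1 stayed between 7.44 and 8.3 over the libraries. The genes that followed NAI1 best were RHS13 (r 0.974), AT4G17100 (0.969) and PUB23 (0.967). Of the 10 root markers, the sums were 126 to 136 cRPKM in WT mock and 125 to 131 in WT ABA, and in sr34a-1 they were 143 to 151 and 133 to 137, and none was at 0. In WT 3 of the 10 were lower (5 in limma with either pseudocount) and 1 was higher with ABA, and in sr34a-1 5 were lower and 1 was higher. Over all genes, 17% were called lower and 18.2% higher with ABA in WT, and 20.7% lower and 19.4% higher in sr34a-1. The part of the root markers in the NAI1 and NAI2 levels was not tested.

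PBP1, the PYK10-binding lectin, was at 2322.46, 2044.17 and 2399.57 cRPKM in WT mock and at 2512.48, 2405.09 and 2414.17 in sr34a-1 mock. With ABA it was at 2387.61, 2223.41 and 2387.99 cRPKM in WT and at 2284.65, 2241.83 and 2182.48 in sr34a-1. In mock the sr34a-1 libraries lay just above the WT libraries in cRPKM but overlapped them in CPM, with a log2 difference of 0.12 (SE 0.0583). With ABA the genotypes overlapped, and within sr34a-1 the ABA libraries lay below the mock libraries, with a log2 fold change of -0.09 (SE 0.0583). The ratio of BGLU23 to PBP1 was 2.76 ± 0.0625 in WT mock and between 2.54 and 2.56 as a mean in the other groups. The ratio of BGLU23 to NAI2 was 10.4 ± 0.524 in WT mock and 12.2 ± 0.108 in WT ABA (SD, n = 3).

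**Figure D4:**
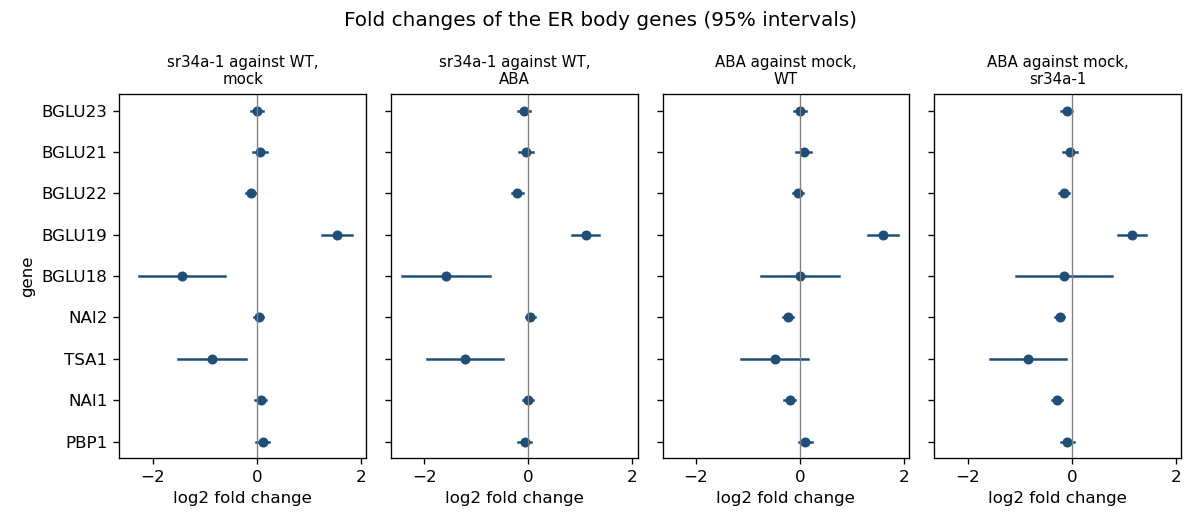
Log2 fold change of each member (points) with its 95% interval (lines) in the 4 pairwise comparisons, from the fit over 12 libraries. BGLU19 lies right of 0 in all 4 panels, from 1.10 to 1.60, BGLU18 lies left of 0 in both genotype panels, at -1.44 and -1.58, and BGLU23 stays between -0.10 and 0.01.

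Counted over the members, the comparison of sr34a-1 with WT in mock had 2 of 9 past an adjusted p of 0.05, beside 16.4% of all genes tested, and 3 of 9 whose groups did not overlap in CPM, beside 34.9% of all genes. A fit blocked by replicate number called 5 of 9 in mock, with BGLU22, PBP1 and TSA1 added, beside 25.3% of all genes. With ABA, sr34a-1 and WT differed past the threshold in 4 of 9, beside 22.1% of all genes, and did not overlap in 4 of 9, beside 37.1%. ABA against mock in WT passed in 3 of 9, beside 35.1%, and did not overlap in 3 of 9, beside 45.1%. In sr34a-1 it passed in 4 of 9, beside 40.1%, and 7 of 9 did not overlap, beside 50.6%, with 1 higher and 6 lower. Since the members were chosen with these contrasts known, nothing is read from these counts. The median log2 fold change of the members was 0.04, -0.07, -0.01 and -0.14 in the 4 comparisons in this order, beside 0.02, 0.003, -0.01 and -0.02 over all genes. Without the WT mock replicate 2, or without sr34a-1 mock replicate 1 or 2, the call of BGLU18 in mock was lost, with its log2 difference between -1.71 and -1.23 over all fits that leave out 1 library.

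The ABA responses of the genotypes were also set against each other. The difference of the log2 responses, sr34a-1 minus WT, ran from -0.44 (BGLU19, 95% interval -0.82 to -0.06) to -0.001 (NAI2, -0.13 to 0.13), and 0 of 9 members passed the adjusted threshold. Over all 21256 genes the quasi-likelihood test of edgeR gave 0 genes (0%) past an adjusted p of 0.05 and 1374 at an unadjusted p under 0.05, and DESeq2 gave 38. For BGLU23 the interval was -0.25 to 0.07 and for BGLU18 -1.33 to 1.05.

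Other genes around the ER body were read from the same fit, with edgeR's p-values adjusted over all genes. Their lists, like the members, were chosen with earlier results of these data known. The counts and p-values of the lists are therefore descriptions and not independent support. The 7 lists hold 65 genes, not all of which passed the filter on low counts. The genes tested numbered 4, 9, 6, 11, 15, 10 and 5 per list, in the order of the paragraphs below. The shares of all genes in this paragraph also stand beside the counts of each list below. Among those tested, ABA raised 15 and lowered 22 in WT, and in the mutant raised 13 and lowered 28. Over all genes, 18.2% were called higher and 17% lower with ABA in WT, and in sr34a-1 these shares were 19.4% and 20.7%. Between genotypes, 10 of the listed genes tested were higher and 1 was lower in sr34a-1 in mock, beside 8.42% and 7.99% of all genes. With ABA, 7 were higher and 6 lower, beside 11.1% and 11% of all genes. In the fit blocked by replicate number, 19 rather than 10 were higher and 4 rather than 1 lower in mock, and 12 rather than 7 were higher with ABA. The blocked fit also called more of all genes, 13.5% higher and 11.8% lower in mock and 15.1% higher and 15.3% lower with ABA.

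Among 5 other ER body components, of which BGLU20 had 0 counts in every library, MEB1 and MEB2, membrane proteins of ER bodies, fell with ABA, and BGLU24 and BGLU25 rose, in both genotypes. The medians of the 4 genes tested were 0.19 in WT and 0.26 in sr34a-1, beside -0.01 and -0.02 over all genes. MEB1 was at 77.1 ± 1.45 cRPKM in WT mock and 56.3 ± 3.26 in WT ABA, a log2 fold change of -0.40 (SE 0.042, adjusted p = 2.57e-06), and in sr34a-1 it fell by 0.37 (SE 0.0419, adjusted p = 5.82e-06). MEB2 was at 16.3 ± 0.173 and 11.7 ± 0.749 cRPKM in WT, with -0.43 (SE 0.0504), and fell by 0.36 (SE 0.0503) in sr34a-1. BGLU25, another β-glucosidase of the family, rose with ABA from 52.3 ± 0.395 to 87.3 ± 3.83 cRPKM in WT, a log2 fold change of 0.79 (SE 0.0465, adjusted p = 4.69e-09), and by 0.88 (SE 0.0463) in sr34a-1, where it was higher than in WT by 0.27 (SE 0.0464) in mock and by 0.36 (SE 0.046) with ABA. BGLU24 also passed with ABA in each genotype but had 0 to 28 counts per library, and in sr34a-1 it lost the call in limma on log2(cRPKM + 1). Blocked by replicate number, MEB1 was called higher in sr34a-1 with ABA (log2 difference 0.11; adjusted p = 0.037 blocked and 0.0719 unblocked).

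The PYK10 complex list holds jacalin-related lectins and GDSL lipase-like proteins that were found in aggregates with PYK10. Of its 9 genes tested, 4 fell and 1 rose with ABA in WT, and 5 fell and 1 rose in sr34a-1, with median log2 fold changes of -0.10 and -0.22. GLL22 fell from 367 ± 25.8 to 228 ± 20.2 cRPKM in WT, a log2 fold change of -0.64 (SE 0.0773, adjusted p = 1.3e-05), with -0.675 (SE 0.0773) in sr34a-1. JAL33 fell by 0.21 (SE 0.0412) in WT and JAL22 by 0.32 (SE 0.0604) in sr34a-1. JAL31, the gene beside PBP1, rose by 0.24 (SE 0.0529) in WT and 0.20 (SE 0.0528) in sr34a-1. Between genotypes, JAL35 was lower in sr34a-1 by -0.27 (SE 0.0516) in mock and -0.39 (SE 0.052) with ABA, although its annotated gene overlaps JAL34 on the other strand, so that its counts are uncertain. JAL32 differed by -0.59 (SE 0.166) with ABA, a call lost without WT ABA replicate 2 or sr34a-1 ABA replicate 1 or 3. GLL23 and GLL25 differed in mock by 0.30 (SE 0.0866, adjusted p = 0.028) and 0.24 (SE 0.0769, adjusted p = 0.0474), but were called in 15 and 7 of 20 alternatives. Both lost the call in limma on log2(cRPKM + 1), in the fit on the 6 libraries compared and without WT mock replicate 2 or 3 or sr34a-1 mock replicate 1, and GLL25 lost it without any 1 library other than WT mock replicate 1 and WT ABA replicate 2. Blocked by replicate number, 4 rather than 2 of the 9 were higher in sr34a-1 and 2 rather than 1 lower in mock, and 3 rather than 0 were higher with ABA.

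Of 6 jasmonate and bHLH regulators tested, 1 rose and 1 fell with ABA in WT, and 1 rose and 2 fell in sr34a-1, with median log2 fold changes of 0.02 and -0.09. MYC2, a central activator of jasmonate responses, rose with ABA by 0.25 (SE 0.0646, adjusted p = 0.00756) in WT and 0.43 (SE 0.0643) in sr34a-1. MYC4, a related factor, fell by 0.32 (SE 0.0714) and 0.26 (SE 0.0701). The other gene that fell in sr34a-1 was bHLH25, by 0.86 (SE 0.297, adjusted p = 0.0326), a call lost in the fit on the 6 libraries compared and without sr34a-1 mock replicate 1 or 2 or sr34a-1 ABA replicate 2. The factor bHLH19, encoded beside NAI1, had group means of 0.413 to 0.867 cRPKM, and bHLH18 had 0 to 2 counts in a library. Between genotypes in mock, bHLH19 was called higher in sr34a-1 by 0.92 (edgeR adjusted p = 0.0494), but in 7 of 19 alternatives. With ABA, MYC2 was called higher in sr34a-1 by 0.19 (edgeR adjusted p = 0.0475) and MYC4 by 0.22 (edgeR adjusted p = 0.0371). These calls held in 14 and 13 of 20 alternatives.

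Of 11 ER chaperones and retention genes, 6 fell and 1 rose with ABA in WT, and 8 fell and 1 rose in sr34a-1, with median log2 fold changes of -0.30 and -0.37. CNX1, the chaperone calnexin, fell by 0.56 (SE 0.0759, adjusted p = 3.71e-05) in WT and by 0.79 (SE 0.0761) in sr34a-1. BIP2, an HSP70 chaperone of the ER lumen with a near-identical copy, fell by 0.56 (SE 0.119) and 0.86 (SE 0.119). ERD2, the receptor that returns proteins with an ER retention signal, rose by 0.90 (SE 0.0488, adjusted p = 1.99e-09) in WT and 1.00 (SE 0.0484) in sr34a-1, and was higher in sr34a-1 than in WT with ABA by 0.22 (SE 0.0475). Blocked by replicate number, BIP1 and PDIL1-1 were called higher in sr34a-1 in mock (adjusted p = 0.00697 and 0.00784, against 0.186 and 0.11 unblocked) and CNX1 lower with ABA (adjusted p = 0.0162, against 0.21).

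The genes that make and break indole glucosinolates, the candidate substrates of PYK10, were split. Of 15 synthesis genes, 4 rose and 5 fell with ABA in WT, and 2 rose and 7 fell in sr34a-1, with median log2 fold changes of -0.04 and -0.24. CYP81F3, which modifies the indole ring, fell by 1.25 (SE 0.0852, adjusted p = 2.42e-08) in WT and 1.48 (SE 0.0854) in sr34a-1. CYP81F4 fell by 1.14 (SE 0.067) in WT and CYP81F2 by 1.27 (SE 0.1) in sr34a-1. MYB34, an activator of the pathway, rose by 0.35 (SE 0.0737) and 0.30 (SE 0.0733), and CYP79B2, the first enzyme of the pathway, by 0.31 (SE 0.0488) and 0.15 (SE 0.0487), of which the call in sr34a-1 was lost in limma with either pseudocount and without sr34a-1 mock replicate 2 or 3 or sr34a-1 ABA replicate 3. In mock, 6 of the 15 were higher in sr34a-1, with 9 in the blocked fit, 2 without WT mock replicate 2 and 3 without sr34a-1 mock replicate 3. CYP81F2, with a difference of 0.57 (SE 0.0972), was called in 20 of 20 alternatives. With ABA it was the 1 gene called, with 0.40 (SE 0.107), a call lost in the fit on the 6 libraries compared and without WT ABA replicate 1 or 2, and the blocked fit called 2.

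Of 10 myrosinase and specifier genes tested, 2 rose and 3 fell with ABA in each genotype, with median log2 fold changes of -0.13 in WT and -0.16 in sr34a-1. NSP5, a nitrile specifier protein that redirects glucosinolate breakdown, rose from 80.7 ± 2.59 to 236 ± 7.1 cRPKM in WT, a log2 fold change of 1.60 (SE 0.0474, adjusted p = 3.42e-12), and by 1.56 (SE 0.0473) in sr34a-1. PEN2, an atypical myrosinase of defence, fell by 0.37 (SE 0.0491) and 0.55 (SE 0.0491), and NSP4 by 0.45 (SE 0.05) and 0.53 (SE 0.0498). NSP1 rose by 0.27 (SE 0.0543) in WT. Between genotypes in mock 0 of the 10 passed, and in the fit blocked by replicate number 2 were higher and 2 lower in sr34a-1. NSP2 was the 1 gene called higher in sr34a-1 with ABA, by 1.54 (edgeR adjusted p = 0.0062), and was called in 20 of 20 alternatives. Its level was 0.687 ± 0.438 cRPKM in WT ABA and 1.98 ± 0.38 cRPKM in sr34a-1 ABA. With ABA 4 were called lower in sr34a-1, PEN2, NSP1 and the root myrosinases TGG4 and TGG5, but 1 in limma with either pseudocount, 0 without WT ABA replicate 3 or sr34a-1 ABA replicate 1 or 3, 1 without WT ABA replicate 2 and 2 without WT ABA replicate 1 or sr34a-1 ABA replicate 2.

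Enzymes of the ABA glucose ester, the substrate of BGLU18, were tested for 5 of 6 genes. With ABA, 4 rose and 1 fell in each genotype, with median log2 fold changes of 0.99 in WT and 1.03 in sr34a-1. BGLU10, a glucosidase of the vacuole, rose by 0.99 (SE 0.0993, adjusted p = 1.69e-06) in WT and 1.03 (SE 0.0996) in sr34a-1. UGT71B7, a glucosyltransferase that acts on ABA, rose by 0.30 (SE 0.0514) and 0.38 (SE 0.0512), whereas UGT71C5, another such enzyme, fell by 0.40 (SE 0.0838) and 0.60 (SE 0.0839). Between genotypes with ABA, UGT71B8 was called higher in sr34a-1 by 1.005 (edgeR adjusted p = 0.00912), a call lost without sr34a-1 ABA replicate 3. Its level was 0.66 ± 0.0265 cRPKM in WT ABA and 1.34 ± 0.441 cRPKM in sr34a-1 ABA. Blocked by replicate number, UGT71C5 was called lower in sr34a-1 with ABA (adjusted p = 0.0383, against 0.106 unblocked). The UGT71B genes stand next to each other and are close relatives, so that their counts are uncertain.

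**Figure D5:**
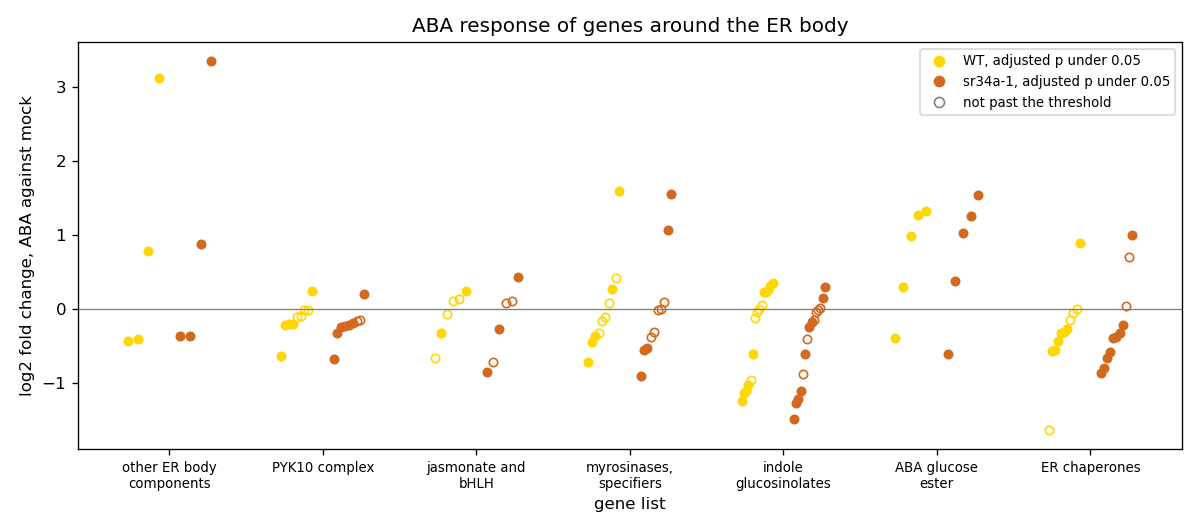
Log2 fold change, ABA against mock, of the tested genes of the 7 lists (points) in WT and in sr34a-1; filled points are genes with an edgeR adjusted p under 0.05. ER chaperones lie mostly below 0 with ERD2 at 0.90 and 1.00 above it, and the topmost points of the first list are BGLU24, which had 0 to 28 counts per library.

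Splicing of the members was measured independently of the choice of genes, as percent spliced in (PSI), the share of reads that include an exon, intron or splice site. No event of BGLU18 (36 listed) or TSA1 (55 listed) had the minimum of 10 reads in each library, so their splicing could not be read at this depth. BGLU23 had 60 such events, at a median of 72090 reads, and every one had a mean PSI under 2 or over 98. Its 12 introns were unspliced in 0.0672% to 0.103% of reads per library. Pooled over introns, 0.043% to 0.132% of reads were unspliced for BGLU21, 0.133% to 0.336% for BGLU22, 0.127% to 0.174% for NAI2, 0.743% to 1.68% for NAI1, 1.17% to 1.69% for PBP1 and 0% to 1.5% for BGLU19.

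A total of 9 member events lay between a mean PSI of 2 and 98 and were tested with limma among 27995 events, 3 exons of NAI2, 5 acceptor sites of PBP1 that share reads and 1 intron of BGLU19. None passed the adjusted threshold in any comparison. Without the adjustment 2 had p under 0.05 for sr34a-1 against WT with ABA and 1 for ABA in WT, and 0 in the other comparisons. Over all events, 0.529% passed for genotype in mock, 0.793% for genotype with ABA, 0.0179% for ABA in WT, 0.0286% for ABA in sr34a-1 and 0% for the difference of the responses. The NAI2 exon at chr3:5401080-5401145, of 66 bases, had a PSI of 97.2 ± 0.327 in WT mock and 98.1 ± 0.39 in WT ABA (SD, 3 libraries each; limma adjusted p = 0.748). The PBP1 acceptor with the largest shift, on 13 to 32 reads per library, had a PSI of 25.2 ± 6.17 in WT ABA and 57 ± 28.7 in sr34a-1 ABA (limma adjusted p = 0.223). The BGLU19 intron at chr3:7525374-7525469 was retained at 1.38 ± 2.38 PSI in WT mock, 0.796 ± 1.17 in sr34a-1 mock, 4.65 ± 1.93 in WT ABA and 2.43 ± 0.464 in sr34a-1 ABA, on 37 to 395 reads.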

How the data were processed

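RNA-seq of 12 libraries in 4 groups of 3 was analysed. Groups and replicate numbers came from the sample titles. The deposited gene table gives, per the file headers, a whole-number count and a cRPKM (an RPKM corrected for mappability, in the layout of vast-tools) for each gene and library. The authors' splicing table gives the percent spliced in of each event and a quality field with read numbers (text other than a measure). The build is TAIR10, per the submitters' processing notes. The aligner, the versions used and strand handling are not given in the sources used here. Positions and sequences are from RefSeq TAIR10.1: of 115163 introns in the splicing table, 99.83% start with GT or GC and end with AG there.

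The members and all lists were chosen with earlier results of these data known. Counts were scaled by TMM and filtered with filterByExpr, and 1 mean per group was fitted over all 12 libraries with edgeR 4.0.16 (quasi-likelihood test, R 4.3.3), Benjamini-Hochberg over 21256 of 32389 genes with values. Of the splicing events, those with at least 10 reads in each library and a mean PSI between 2 and 98 were tested with limma 3.58.1 on log2((inclusion + 0.5)/(exclusion + 0.5)). The first site of each alternative-site event was left out (74450 entries). Both tests were also run on simulated data. The spread there was set alike for all genes or events, so that power in these libraries was not measured. Candidates for naming were list genes past an adjusted p of 0.05, without group overlap and with a mean log2 CPM of 1 or more. From these, up to 2 with the largest increase and 2 with the largest decrease were picked per list and comparison. Not all of those picked are named in the text, and other names were chosen after their values were seen. Coding sequences were aligned with Biopython 1.88, and shared reads were gauged by 50-base stretches of each mRNA. Alternatives were DESeq2 1.42.0, RLE size factors, other filters, limma on log2(cRPKM + 1) and log2(cRPKM + 0.1), a fit on the 6 libraries compared, a replicate block and leaving out each library.

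Replicate numbers, from the titles, were checked by the correlation of same-numbered libraries' deviations from their group means. Between genotypes it was 0.3155, 0.1167 and 0.134 in mock and 0.1485, 0.1367 and 0.1003 with ABA, all over 0.1, so that the blocked value stands beside a genotype result where it changes the call or moves a count by over 1.5 times. Differently numbered libraries were not correlated, so that these values do not show whether the numbers mark pairs. Replicates differed by 4.26 to 19.6 times the sampling noise (chi-square per degree of freedom), so that none were merged. P-values set the difference between groups against the spread between these libraries, and 1 mutant line stands for the genotype.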

Additional observations from a re-analysis of the deposited data

How the results depend on the processing

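The members' log2 fold changes had 881 values under 8 other settings and 12 fits that leave out 1 library each. Of these, 866 moved by less than 1 SD within groups and 15 moved by more. Reversals were counted only for changes called in the main fit, and 0 were found. Some changes that were not called did change sign, such as BGLU18 with ABA in sr34a-1, at -0.147 and up to 0.243 without 1 library. With log2(cRPKM + 1) in limma, BGLU18 gave -0.30 in mock and TSA1 -0.20 with ABA, since the added 1 exceeds their levels. BGLU22 with ABA in sr34a-1 lost its call without each of the 3 sr34a-1 mock libraries in turn and without sr34a-1 ABA replicate 3, and TSA1 between genotypes with ABA without WT ABA replicate 2 or 3 or sr34a-1 ABA replicate 3.

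With the replicate block, 5 members and 5381 of all genes were called between genotypes in mock, 74 genes in the difference of responses, and of the other pathway genes 19 were higher and 4 lower in mock and 12 higher with ABA. Between the ABA and mock groups the correlations of same-numbered libraries were 0.1899, 0.178 and 0.02602 in WT. In sr34a-1 they were 0.09906, 0.05951 and -0.02563. Like those between genotypes, they do not show whether the numbers mark pairs. For ABA against mock the block gave 3 members in WT and 6 in sr34a-1, adding BGLU23 and TSA1, beside 41.3% and 46.6% of all genes. It ended no member's call. With at least 1 CPM in 3 libraries, which drops BGLU18 and TSA1, 1 member was called between genotypes in mock and 2 with ABA. DESeq2 called 38 genes in the difference of responses and no filter on low counts called 5. Other pathway genes lower in sr34a-1 were 3 with ABA in limma with either pseudocount, and 2 in mock with no filter or in the fit on 6 libraries. The cause was not tested.

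Without 1 library, counts between genotypes in mock ran from 1896 (without sr34a-1 mock replicate 1) to 4066 for all genes, with 1936 and 2038 without WT mock replicate 2 and 3, from 1 to 3 for members (1 without WT mock replicate 2 or sr34a-1 mock replicate 1 or 2), from 3 to 10 for pathway genes higher (3 without WT mock replicate 2, 6 without WT mock replicate 3, 5 without sr34a-1 mock replicate 1 or 3) and from 1 to 3 lower (3 without WT mock replicate 1 or sr34a-1 mock replicate 3). With ABA they ran from 3081 (without sr34a-1 ABA replicate 3; 3126 without WT ABA replicate 2) to 4898, from 4 to 8 for pathway genes higher (4 without either of these) and from 1 to 6 lower (1 without sr34a-1 ABA replicate 1 or 3, 2 without WT ABA replicate 3, 3 without WT ABA replicate 2). The difference of responses gave 0 to 4 genes.

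With no filter on mean PSI, 14 member events passed for genotype in mock, 15 with ABA, 18 for ABA in WT and 15 in sr34a-1, of 524, 1338, 7244 and 6668 events called in all. They all belong to BGLU19 and lie at 0 or 100 in nearly all libraries, where the log ratio with 0.5 reads added follows depth. Depth limits BGLU18 and TSA1 most.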
